A study of Mus musculus with 6 samples.

Results

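Immediate early genes are transcribed within minutes of a stimulus, without new protein synthesis, and 5 of them were followed in whole brain of wild-type mice and of mice transgenic for SOD1-G85R. The members were chosen by name as activity-regulated immediate early genes, and all 5 (Arc, Fos, Egr1, Jun and Atf3) were among the 770 genes of the panel. The panel was read with NanoString, which counts colour-coded probes bound to RNA and amplifies nothing. Arc was lower in every SOD1-G85R brain than in any wild-type (WT) brain, at 0.547 of the WT mean, and Egr1 was lower in the same way, at 0.691. Fos, Jun and Atf3 overlapped between the genotypes and each had its highest value in the same SOD1-G85R sample, as did 45.9% of the genes tested. None of the 5 passed the test adjusted over the panel.

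In neurons, calcium entry through glutamate receptors and voltage-gated channels activates kinases that act on promoter-bound factors such as CREB, SRF and MEF2, and these switch on immediate early genes. Fos and Jun encode proteins that pair through leucine zippers to form the AP-1 transcription factor. Egr1 encodes a zinc finger transcription factor of the same fast response, and Atf3 encodes a leucine zipper factor of the ATF/CREB family best known for its induction by cell stress and nerve injury. Arc differs from the other 4 in encoding an effector and no transcription factor: its mRNA travels into dendrites, and its protein acts at synapses on the removal of AMPA-type glutamate receptors from the surface.

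Both groups had a C57BL/6 background, came from untreated whole brain and were labelled day 10, with 3 samples per genotype. SOD1-G85R is a mutant of the antioxidant enzyme SOD1 that causes familial amyotrophic lateral sclerosis, and the study asked how expression differs in mice that carry it. The labels give no promoter or copy number for the transgene, no starting point for the days and no sex. They do not say that each replicate is its own animal, so a p-value covers only the spread among these 6 samples, which may be partly technical. Sod1 was not analysed here, so no transgene level stands behind the genotype labels.

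Promoter sequence from RefSeq (build GRCm38.p6) is given for 3 members, Fos, Jun and Atf3. These are also the 3 that shared their highest sample, SOD1-G85R replicate 2, which was the highest in 45.9% of tested genes as well. Windows of the other members are not given, so motifs were not compared between members that did and did not share it. Each run gives the 250 bases before the annotated start, 5′ to 3′ in the direction of the gene. Fos lies at chr12:85473640-85473889 on the plus strand, Jun at chr4:95052223-95052472 on the minus strand and Atf3 at chr1:191183334-191183583 on the minus strand. Capitals mark the motifs found by a search of both strands.
Fos: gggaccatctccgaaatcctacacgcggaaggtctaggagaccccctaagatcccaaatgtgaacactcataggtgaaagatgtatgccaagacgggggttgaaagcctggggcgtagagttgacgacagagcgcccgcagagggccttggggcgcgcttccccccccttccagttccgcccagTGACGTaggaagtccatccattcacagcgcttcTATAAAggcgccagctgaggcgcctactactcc
Jun: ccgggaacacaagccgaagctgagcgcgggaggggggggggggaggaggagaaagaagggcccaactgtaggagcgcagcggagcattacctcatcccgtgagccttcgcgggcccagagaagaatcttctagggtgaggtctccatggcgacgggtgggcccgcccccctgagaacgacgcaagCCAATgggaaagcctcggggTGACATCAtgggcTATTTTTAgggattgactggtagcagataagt
Atf3: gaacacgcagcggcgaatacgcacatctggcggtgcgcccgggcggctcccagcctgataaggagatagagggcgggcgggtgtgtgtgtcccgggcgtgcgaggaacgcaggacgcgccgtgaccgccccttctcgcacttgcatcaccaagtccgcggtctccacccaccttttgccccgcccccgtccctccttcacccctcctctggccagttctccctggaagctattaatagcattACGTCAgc

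The motifs searched were the cAMP response element TGACGTCA, its core TGACGT (which is part of the full element), the AP-1 sites TGANTCA and TGACATCA, the MEF2 core TATTTTTA, the EGR site GCGNGGGCG, TATAAA and CCAAT. The Fos window held the core TGACGT from base 185 and TATAAA from base 218, counted from 1 at the 5′ end. The Atf3 window held the same core on its other strand, as ACGTCA from base 243. The core was present in 6.47% of 32851 promoter windows of this length. The Jun window held CCAAT from base 186, TGACATCA from base 206 and TATTTTTA from base 219, motifs that occur in 33.8%, 2.93% and 2.45% of the windows. TATAAA was in 12.4% of windows. The full element (1.55% of windows), TGANTCA (6.75%) and GCGNGGGCG (4.7%) were in none of these 3 runs, which says nothing of the factors themselves.

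The values are called normalized counts below: each is a probe count times a factor for its sample, and 1 probe count was worth between 0.791 and 1.42. Implied totals ran from 468719 to 1022648 counts per sample. SOD1-G85R replicate 2 stood apart, with correlations across tested genes of 0.824 to 0.834 to the rest, against 0.956 to 0.984 within the rest. Its interferon list (12 of 20 genes measured) summed to 34407 normalized counts, where SOD1-G85R replicates 1 and 3 had 1583 and 1926 and WT 1273 to 1599. Its lymphocyte list (11 of 14 measured, each of the 11 at the lowest recorded value in at least 1 sample) summed to 1109 against 101 to 333 elsewhere. None of the 6 measured neuron, 9 oligodendrocyte and 5 astrocyte markers was at the lowest recorded value in any sample. Signal of the Y-linked gene Uty was present in WT replicates 1 and 2 and SOD1-G85R replicate 2 and at 7.85 to 11.2 in the other samples. Each genotype thus held samples with and without that signal, and so more than 1 animal.

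**Figure D1:**
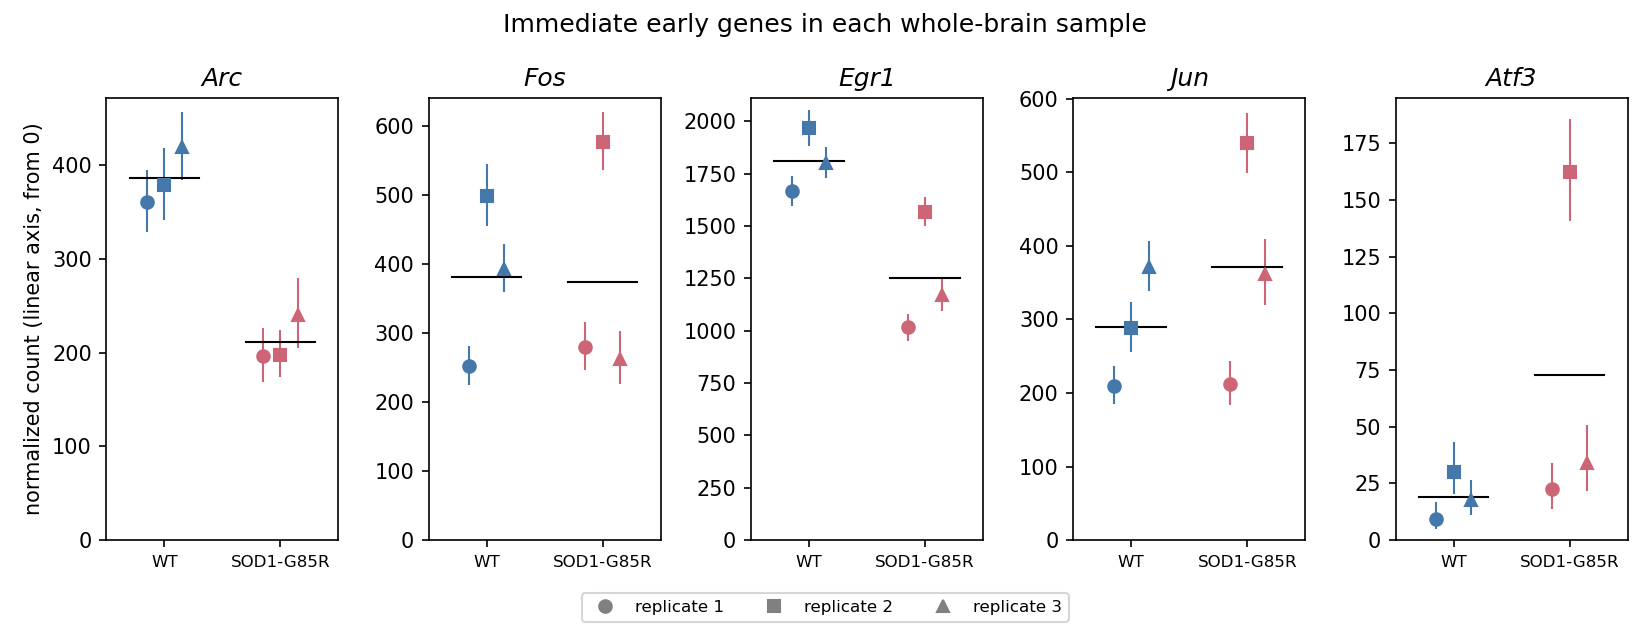
Normalized counts of the 5 immediate early genes (linear axis from 0) in each sample, blue for WT and red for SOD1-G85R, with bars for the 95% counting interval and a line at each group mean. Arc and Egr1 separate the genotypes, while Fos, Jun and Atf3 overlap and peak in SOD1-G85R replicate 2 (red square).

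Arc, the synaptic effector, was measured at 361, 378 and 419 normalized counts across WT replicates 1 to 3. Across SOD1-G85R replicates 1 to 3 it was at 196, 197 and 240. The highest SOD1-G85R brain was thus far below the lowest WT brain, and the 95% counting intervals, 169 to 279 over the SOD1-G85R samples and 328 to 457 over the WT samples, did not meet. The WT mean was 386 ± 30.2 and the SOD1-G85R mean 211 ± 25.0 (SD, n = 3 each).

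On the log2(value + 1) scale the Arc difference was -0.87 (SE 0.19, 95% interval -1.33 to -0.42). It ranked 12th by p of 712 genes tested, with an unadjusted p of 0.00319 and an adjusted p of 0.170 by limma. Fold changes at or below that of Arc were seen in 1.69% of the genes tested. Without SOD1-G85R replicate 2, the sample that stood apart, the difference was -0.83 (SE 0.24, limma adjusted p = 0.0936), so its size did not rest on that sample. The adjusted p was under 0.05 in 2 of 20 other settings: with samples weighted by their spread (0.0379), and with that sample left out and the others centred on their medians (0.0473), a setting chosen after the data were seen. It was 0.0936 to 0.504 in the other settings.

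Egr1, the zinc finger factor, was at 1666, 1967 and 1801 normalized counts across WT replicates 1 to 3. The SOD1-G85R brains, in the same order, had 1015, 1567 and 1172. Every SOD1-G85R sample was below every WT sample, with replicate 2 the closest to them. The means were 1811 ± 151 and 1251 ± 284 (SD, n = 3 each), a log2 difference of -0.55 (SE 0.23, 95% interval -1.10 to -0.00), with a limma unadjusted p of 0.0490 and adjusted p of 0.301. Without SOD1-G85R replicate 2 the difference was -0.73 (SE 0.23, limma adjusted p = 0.125).

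By limma, 0 of the 5 immediate early genes passed an adjusted p of 0.05, and the share of the 712 tested genes that passed was 0%. At an unadjusted p of 0.05, 2 of the 5 were lower (Arc and Egr1) and 0 higher, where 4.63% of all tested genes were lower and 11.7% higher. The same 2 were the members whose groups did not overlap, a pattern with SOD1-G85R below WT that 9.97% of tested genes showed. All 5 members passed the low-value filter. Atf3 did so through its SOD1-G85R values, since WT replicates 1 and 3 were at 9.49 and 17.6, under the limit of 20.

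**Figure D2:**
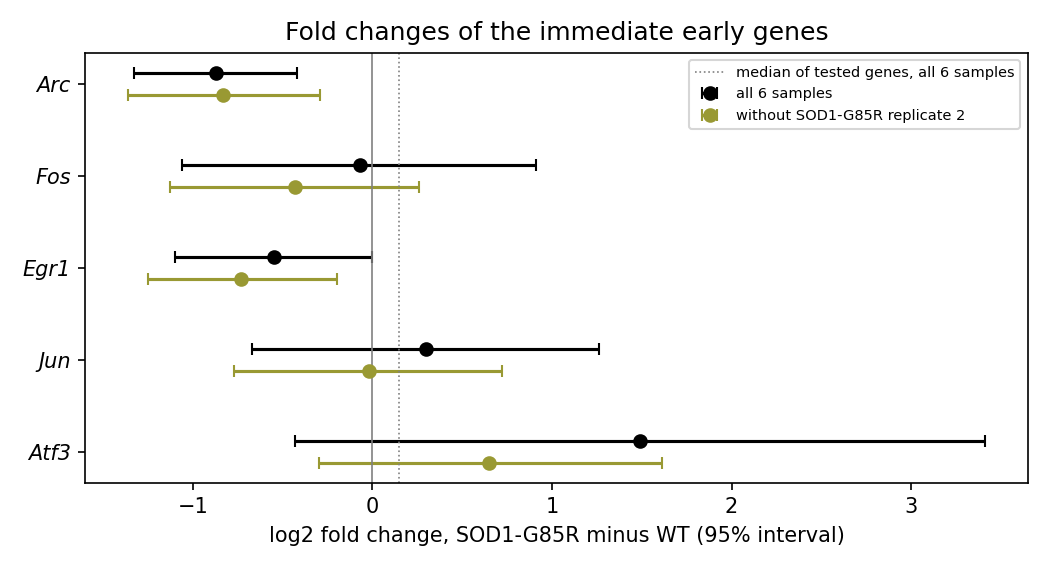
Log2 fold change (SOD1-G85R minus WT) of each immediate early gene with limma's 95% interval, in black from all 6 samples and in olive without SOD1-G85R replicate 2. The Arc interval lies below 0 in both, -0.87 and -0.83, while the estimate for Jun goes from 0.30 to -0.02 and that for Atf3 from 1.49 to 0.65.

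Fos, an AP-1 subunit, varied more within the genotypes than between them. It was at 252, 499 and 393 normalized counts across WT replicates 1 to 3, and the SOD1-G85R brains, in the same order, had 280, 577 and 263. A WT brain gave the lowest of these levels and a SOD1-G85R brain the highest. The means were 381 ± 124 and 373 ± 177 (SD, n = 3 each), a log2 difference of -0.07 (SE 0.41, 95% interval -1.06 to 0.91, limma adjusted p = 0.938). The interval leaves room for a difference as large as that of Arc.

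Jun, the partner of Fos in AP-1, was at 210, 288 and 371 normalized counts across WT replicates 1 to 3. The SOD1-G85R brains, in the same order, had 212, 539 and 362. SOD1-G85R replicates 1 and 3 lay inside the WT range and replicate 2 above it. The log2 difference was 0.30 (SE 0.40, 95% interval -0.67 to 1.26, limma adjusted p = 0.747), and it was -0.02 (SE 0.33) without replicate 2.

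Atf3, the stress-induced factor, was low in 5 of the 6 samples. It was at 9.49, 30.2 and 17.6 normalized counts across WT replicates 1 to 3, which are 12, 30 and 22 probe counts. The SOD1-G85R brains, in the same order, had 22.4, 162 and 34.1, or 21, 204 and 24 probe counts. Replicate 2 was far above the other 5 samples, and the intervals of SOD1-G85R replicates 1 and 3 (13.8 to 34.2 and 21.8 to 50.7) overlapped that of WT replicate 2 (20.4 to 43.1).

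The log2 difference of Atf3 was 1.49 (SE 0.79, 95% interval -0.43 to 3.41, limma adjusted p = 0.427). Without SOD1-G85R replicate 2 it was 0.65 (SE 0.42, limma adjusted p = 0.498). The +1 in the log scale compresses differences at such low values. Fos, Jun and Atf3 were 3 of 5 members with their highest value in SOD1-G85R replicate 2, and 45.9% of tested genes shared that maximum. The raised interferon and lymphocyte sums given above belong to the same sample, and their part in the Fos, Jun and Atf3 values was not tested.

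The scaling between samples bears on these values, because the median tested gene of SOD1-G85R replicate 2 lay 0.75 above the WT mean on the log2 scale while its housekeeping median lay at -0.25. With samples centred on the median of tested genes, Arc was at -0.76, -1.71 and -0.76 relative to the WT mean across SOD1-G85R replicates 1 to 3. With samples centred on the housekeeping genes it was at -0.70, -0.72 and -0.58. The WT samples lay between -0.10 and 0.13 in both, so that Arc separated the genotypes under each of these scalings.

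Egr1 did not separate them under all. Centred on housekeeping genes, it was at 0.04 in SOD1-G85R replicate 2, inside the WT range of -0.13 to 0.12, and at -0.56 and -0.52 in replicates 1 and 3. Centred on the median of tested genes, the 3 samples were at -0.62, -0.95 and -0.71. Jun in SOD1-G85R replicate 2 was at 0.18 after median centring, inside the WT range of -0.29 to 0.28, and Fos at -0.10 inside -0.40 to 0.42. Atf3 in that sample stayed outside the WT range at 2.41.

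**Figure D3:**
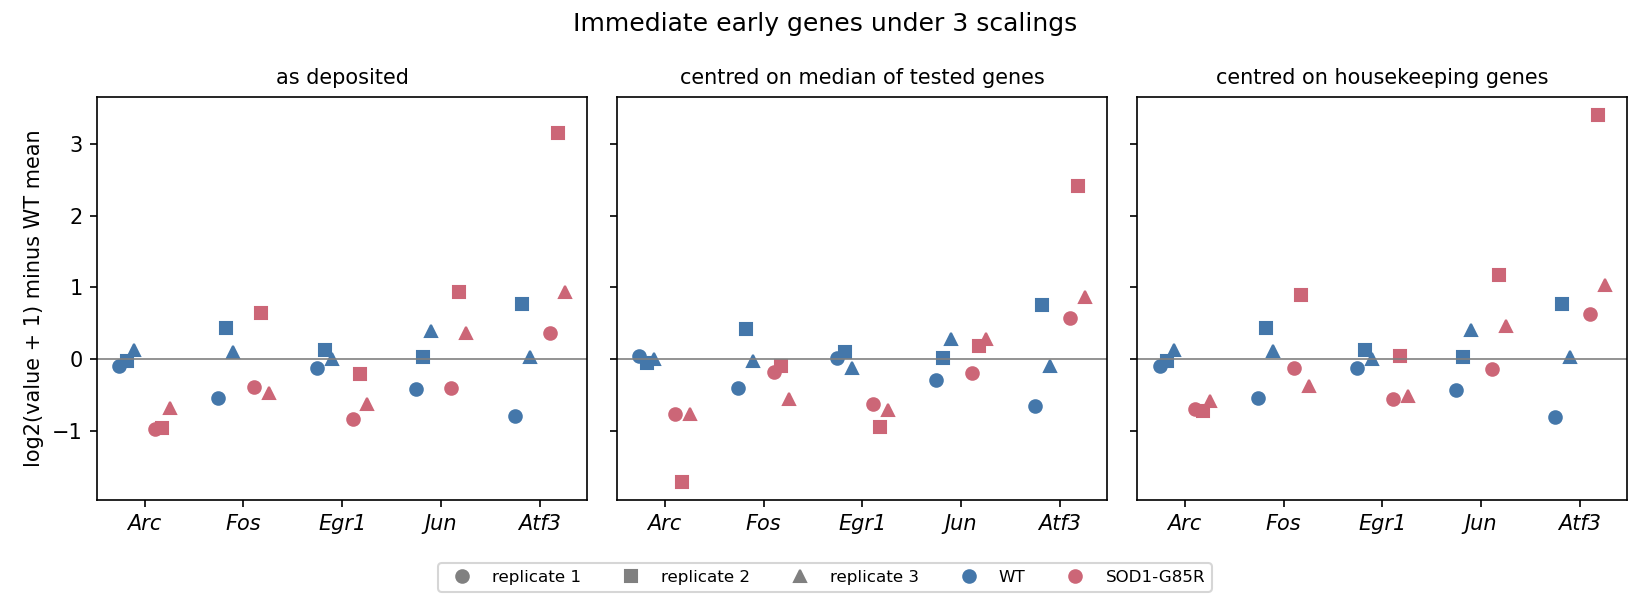
Log2(value + 1) of each immediate early gene minus the WT mean, per sample, as deposited and after centring on the median of tested genes or on housekeeping genes. Arc is below all WT samples in each panel, and the Fos and Jun values of SOD1-G85R replicate 2 (red square) lie within the WT range only in the middle panel.

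Ratios within a sample cancel its scaling factor, apart from the 1 added to each value, which matters at low values such as those of Atf3. The log2 ratio of Arc to Jun was 0.78, 0.39 and 0.18 across WT replicates 1 to 3 and -0.11, -1.44 and -0.59 across SOD1-G85R replicates 1 to 3, so every SOD1-G85R value was below every WT value. Its mean difference was -1.17, or -0.80 without SOD1-G85R replicate 2. The ratio of Arc to Atf3 separated the genotypes as well, with WT values of 3.60 to 5.11 and SOD1-G85R values of 0.28 to 3.08. The difference was -2.36, or -1.48 without SOD1-G85R replicate 2, and -2.01 with 10 added to each value in place of 1. Both ratios had an exact permutation p of 0.1 (two-sided), the smallest that 3 samples against 3 can give, and 0.2 after adjustment over the 4 ratios.

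The ratio of Arc to Fos overlapped between genotypes, at -0.40 to 0.51 in WT and -1.54 to -0.13 in SOD1-G85R, a difference of -0.80 (exact permutation p = 0.2, adjusted p = 0.267) that was -0.39 without SOD1-G85R replicate 2. The ratio of Arc to Egr1 differed least, by -0.32 with all samples (exact permutation p = 0.3, adjusted p = 0.3) and by -0.10 without SOD1-G85R replicate 2. It was -2.10 to -2.38 in WT, -2.37 and -2.28 in SOD1-G85R replicates 1 and 3, and -2.98 in replicate 2. Of the 10 pairs of members, Arc and Egr1 had the most similar profiles over the 6 samples, with a root mean squared difference of 0.28 on the log2 scale after each gene was centred on its mean. Arc and Atf3 were the least alike, at 1.54.

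The members also differed in how far replicates spread. The pooled standard deviation within genotypes was 0.14 on the log2 scale for Arc, smaller than for most of the panel: 7.87% of tested genes had a smaller one. Egr1 had 0.24, with 25.4% of genes below it. Jun and Fos had 0.56 and 0.57, with 74.0% and 75.6% below, and Atf3 had 1.18, with 93.4% below, where the median gene had 0.36. Within WT alone, which leaves out the sample that stood apart, the spread was 0.11 for Arc, 0.12 for Egr1, 0.41 for Jun, 0.50 for Fos and 0.79 for Atf3. The WT spread of Atf3 rests on 12, 30 and 22 probe counts.

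**Figure D4:**
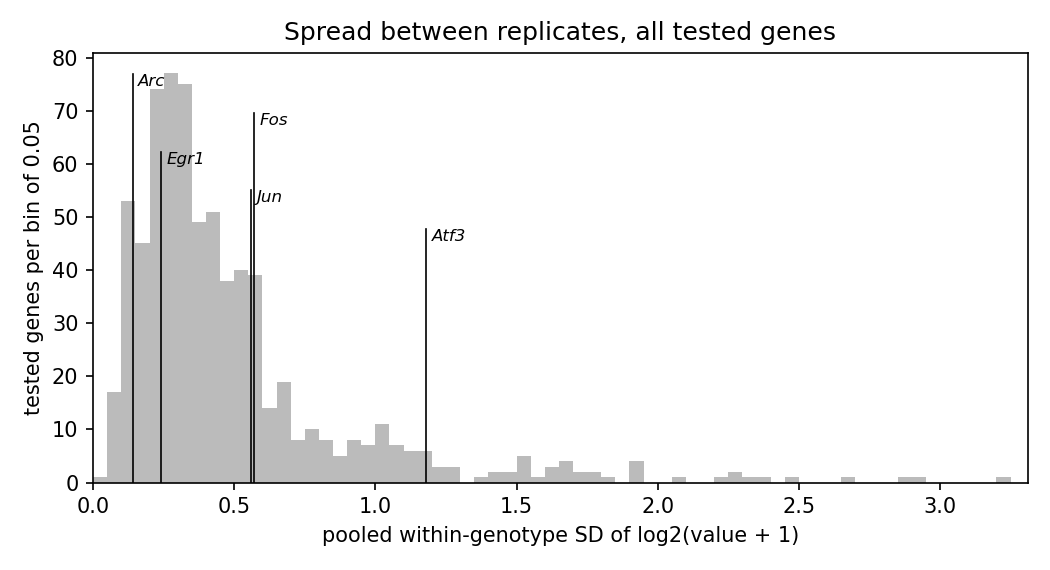
Pooled within-genotype SD of log2(value + 1) for the tested genes (grey, counts per bin of 0.05), with the 5 immediate early genes marked. Arc lies at the low end at 0.14, and Atf3 in the upper tail at 1.18.

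Other activity-regulated genes went in both directions. Of 50 listed by function, 8 were measured and tested: 4 were higher and 4 lower in SOD1-G85R, with a median of -0.03 beside 0.15 over all tested genes, and 0 passed limma's adjusted threshold. Homer1, a postsynaptic scaffold gene with an activity-induced short form, was at 2092 to 3333 normalized counts in WT and 1189 to 2005 in SOD1-G85R without overlap (log2 difference -0.80, SE 0.29, limma adjusted p = 0.257). Nptx1, a secreted pentraxin of excitatory synapses, was at 2402 to 3530 and 1761 to 2498 (log2 difference -0.56). Bdnf, the neurotrophin, averaged 393 ± 147 and 293 ± 89.9, and Ptgs2, the inducible cyclooxygenase, 62.3 ± 15.6 and 47.8 ± 11.1; Bdnf is named after its values were seen.

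On the higher side, Maff, a small leucine zipper factor, was at 30.1, 33.2 and 36.0 normalized counts in WT and at 46.9, 82.8 and 92.3 in SOD1-G85R, again without overlap. Its log2 difference was 1.08 (SE 0.30, limma adjusted p = 0.210) and 0.98 without SOD1-G85R replicate 2. Myc, a growth-related transcription factor, was at 112 to 180 in WT and 172 to 357 in SOD1-G85R (log2 difference 0.83). Cdkn1a, a cell cycle inhibitor, was at 454 to 763 and 804 to 1412 (log2 difference 0.66, and 0.39 without SOD1-G85R replicate 2).

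Genes of the signalling that leads to immediate early transcription were mostly lower. Of 51 listed, 22 were measured and tested, 20 with a negative and 2 with a positive fold change, where 37.4% of all tested genes were negative. Other lists leaned the same way: 10 of the 12 tested housekeeping genes were negative, with a median of -0.10, and so were 9 of 9 oligodendrocyte markers, with a median of -0.77. The median of the signalling genes was -0.34, and 0 passed limma's adjusted threshold, while 3 were lower at an unadjusted p of 0.05. Without SOD1-G85R replicate 2, 19 of the 22 were negative, where 49.3% of tested genes were. Centring samples on housekeeping genes gave a median of -0.14 and centring on the median of tested genes gave -0.55.

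The receptor end of that list held Grin2a, an NMDA receptor subunit, at 326 to 397 normalized counts in WT and 195 to 227 in SOD1-G85R (log2 difference -0.81, SE 0.18, limma adjusted p = 0.188). The AMPA receptor subunit genes Gria2 and Gria1 had log2 differences of -0.60 and -0.36. Among the calcium-dependent enzymes, Ppp3ca, a catalytic subunit of calcineurin, averaged 11654 ± 1359 and 7828 ± 598, and Camk4, a nuclear calcium/calmodulin kinase, 3670 ± 74.5 and 2699 ± 330 (SD, n = 3 each). Groups did not overlap for either. Braf, a kinase of the MAP kinase cascade, had a log2 difference of -0.38. Of the factors at the promoter, Creb1 averaged 802 ± 140 and 762 ± 86.1 (log2 difference -0.07, SE 0.21). Crem and Mef2c had log2 differences of -0.41 each, which were -0.26 and -0.22 without SOD1-G85R replicate 2. These 3 factors were named after their values were seen.

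Of 28 listed AP-1 partners and stress kinases, 7 were tested, 4 higher and 3 lower. The median was 0.18 beside 0.15 over all tested genes, and 0 passed limma's adjusted threshold. Mapk10, the neuronal JNK kinase gene, averaged 2588 ± 162 and 1948 ± 235, and Nfe2l2, the oxidative stress factor NRF2, 65.9 ± 11.1 and 116 ± 49.8. The others had log2 differences of -0.40 to 0.78, with Map3k1, a kinase upstream of JNK, at 0.78. Without SOD1-G85R replicate 2 the Map3k1 difference was 0.51 and that of Nfe2l2 went from 0.74 to 0.41.

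Of 18 listed injury and stress genes, with which Atf3 is often induced, 7 were tested. Of these, 6 were higher and 1 lower, where 37.4% of all tested genes were lower. The list had a median of 0.56, and 0 passed limma's adjusted threshold. Without SOD1-G85R replicate 2 the median was 0.31 and 1 of the 7 was lower, where 49.3% of tested genes were. Hspb1, a small heat shock protein, averaged 99.6 ± 34.0 and 167 ± 50.6, and Ngfr, the low-affinity neurotrophin receptor, 36.4 ± 14.6 and 60.3 ± 16.4. Hmox1, heme oxygenase 1, was at 55.9 to 68.4 normalized counts in WT and at 71.4, 370 and 86.6 across SOD1-G85R replicates 1 to 3, so that like Atf3 it was high in replicate 2.

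**Figure D5:**
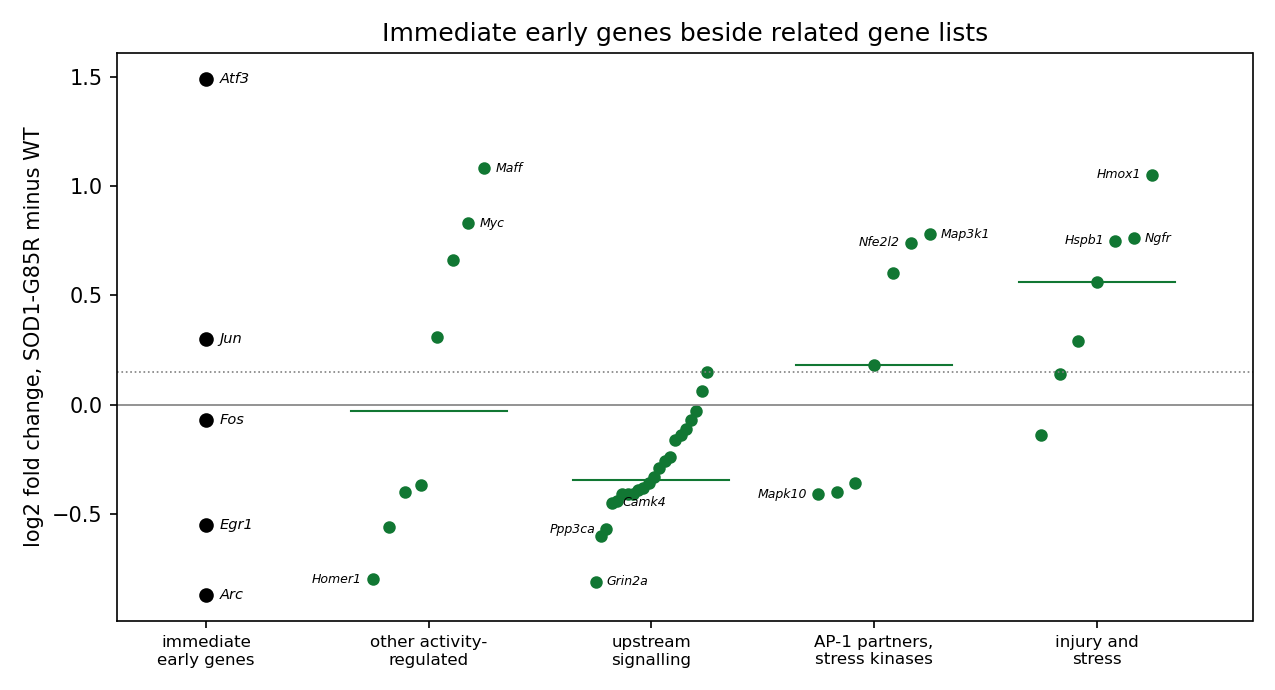
Log2 fold change (SOD1-G85R minus WT) of the immediate early genes (black) and of the measured genes of 4 related lists (green, with a line at each list's median); the dotted line is the median of all tested genes, 0.15. The upstream signalling list has 20 of 22 genes below 0, with a median of -0.34.

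The genes whose profile over the 6 samples was most like each member were found by the same root mean squared difference. For Arc they included Gpr62, an orphan receptor gene, at 0.12 and Grin2a at 0.15, where the median tested gene was at 0.59. For Egr1 they were Bcas1 (0.12), Iqsec1 (0.13) and Srxn1 (0.13), with a median of 0.47. For Fos they were Dnmt1 (0.17), Hps4 (0.20) and Il15ra (0.21), with a median of 0.54. For Jun they were Trim47 (0.13) and the ribosomal protein genes Rps9 (0.14) and Rpl9 (0.16), with a median of 0.50. For Atf3 they were Vim (0.26), the intermediate filament gene vimentin, Ikbke (0.27) and Siglec1 (0.31), with a median of 1.11.

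Arc is expressed mainly in excitatory neurons, and markers of neurons and of oligodendrocytes were set beside it. The 6 measured neuron markers (of 18 listed) summed to 27653 to 32146 normalized counts in WT and 23435 to 29215 in SOD1-G85R, overlapping ranges. The sum joined markers that differed in direction, 3 lower and 3 higher in SOD1-G85R. Slc17a7, the vesicular glutamate transporter of cortical and hippocampal excitatory neurons, averaged 6022 ± 639 and 3418 ± 866, at 0.568 of the WT mean (log2 difference -0.84, SE 0.24, limma adjusted p = 0.223). Nefl, a neurofilament gene, averaged 2456 ± 384 and 1639 ± 173 (log2 difference -0.58), and Tubb3, a neuronal tubulin gene, 8230 ± 540 and 9084 ± 314 (log2 difference 0.14). Slc17a7 and Nefl were lower in SOD1-G85R without overlap, as were 9.97% of tested genes. Tubb3 was higher without overlap, and the share of tested genes with that pattern was not counted. The other 3 neuron markers overlapped. Slc17a6, another vesicular glutamate transporter gene, averaged 3943 ± 1684 and 3894 ± 637 (log2 difference 0.06), and Rbfox3 and Syp had log2 differences of 0.06 and -0.27. The 9 oligodendrocyte markers used (of 12) summed to 19558 to 30653 and 9735 to 17159, which did not overlap. In bulk tissue, fewer cells of a type and less RNA per cell cannot be told apart. The part of either list in the Arc difference was not tested.

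Taken relative to the mean log2 level of the neuron markers within each sample, Arc was at -0.54, -0.69 and -0.67 across SOD1-G85R replicates 1 to 3, where WT brains gave -0.16 to 0.09, a difference of -0.63. Relative to Slc17a7 the difference was -0.03 and the genotypes overlapped. Relative to Homer1 it was -0.07 and relative to Bdnf -0.47, both also with overlap. These 3 reference genes were chosen with their values known.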

How the data were processed

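RNA of 6 mouse whole-brain samples (3 WT, 3 SOD1-G85R, by the titles) was read on a NanoString panel. The authors deposited 1 signal value per gene and sample. Their software is not given in the sources used here. Values above a sample's lowest were whole multiples of 1 step (100% within 0.1 count), read as the worth of 1 count. The lowest, shared by 10 to 59 genes, was read as a floor, so no count test was run. Exact 95% Poisson intervals on implied counts cover counting error only.

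The deposited scaling was kept. Genes above 20 in at least 3 samples were tested (712, with 58 left out) on log2(value + 1) with limma 3.58.1 in R 4.3.3, two-sided, Benjamini-Hochberg adjusted, at a threshold of 0.05. The fit was tested on simulated data. Named genes are the members, up to 6 genes of smallest p in each related list, the 3 genes most like each member and markers; 1 that the rule names is not reported here. Members and lists were chosen with earlier results of these data known. Other settings varied replicates, scaling, pseudocount, filter, block, variance model, weights, a Uty term and a floor. Symbols were matched to GRCm38.p6. Figures used matplotlib 3.10.9.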

Additional observations from a re-analysis of the deposited data

How the results depend on the processing

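Arc and Egr1 were lower in SOD1-G85R under all 20 other settings, with log2 differences of -1.14 to -0.64 and -0.76 to -0.35. Atf3, which passed the filter through its SOD1-G85R values, was higher under the 19 settings that tested it (0.30 to 2.05). Arc passed the adjusted threshold with sample weights (-0.81, limma adjusted p = 0.0379). It also passed with SOD1-G85R replicate 2 left out and the others centred on their medians (-0.76, limma adjusted p = 0.0473, chosen after the data were seen). The weighting stopped before its tolerance was reached and gave SOD1-G85R replicate 2 a weight of 0.237. Its largest weights were 3.33 for WT replicate 3 and 2.24 for SOD1-G85R replicate 3. Arc was the 1 immediate early gene to pass in either setting, and 0 passed under the other settings. The panel count of 0 became 10 without SOD1-G85R replicate 2, 52 with weights, 80 with that sample left out and median centring and 54 with it left out and housekeeping centring, and was 0 to 10 over the fits leaving out 1 sample. Fos changed sign, between -0.43 and 0.15 when 1 sample was left out (0.15 without WT replicate 2, 0.09 without SOD1-G85R replicate 1 and 0.13 without SOD1-G85R replicate 3), at 0.13 with housekeeping centring and at 0.09 with the Uty term. Jun lay between -0.02 and 0.65 when 1 sample was left out, the lowest without SOD1-G85R replicate 2. The median of upstream signalling genes was -0.55 with median centring, -0.14 with housekeeping centring and -0.22 after quantile normalization. That of AP-1 partners was -0.20 after quantile normalization and -0.02 to 0.47 leaving out 1 sample, and that of injury genes 0.23 and 0.31 to 1.01. The cause was not tested. The median of all tested genes was 0.15 as deposited, -0.06 with median centring, 0.35 with housekeeping centring and -0.08 after quantile normalization. Replicate numbers are shared between groups, but deviations of same-numbered samples correlated by 0.23, 0.09 and 0.10, which does not establish pairs, and 2 of 3 SOD1-G85R samples correlated best with their own number. With the replicate number as a block, Arc was at -0.87 (limma adjusted p = 0.123) and 0 genes passed. Atf3, which has few counts, was at 1.17 with a pseudocount of 10 and 1.10 with values under 20 set to 20.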
